A study of Mus musculus with 28 samples.

Results

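Genes that mark B cells were read in 28 preparations of mouse splenic dendritic cells, as a measure of the B cells the preparations held. The 9 genes were Cr2, Fcer2a, Ebf1, Pax5, Ms4a1, Cd79b, Vpreb3, Fcrla and Cxcr5. A gene was taken from the probe set that carried its symbol and no other, and each of the 9 genes had 1 such probe set. All 9 passed the signal threshold, a log2 value above 5 on at least 3 arrays, which 10452 of 19938 genes with a single-symbol probe set passed. Levels below are deposited log2 values, on which a difference of 1 is a 2-fold difference, and levels of different probe sets are not compared as results, though mean level chose which genes of a longer list to name.

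The mice were 3 months old, and each array held RNA of primary dendritic cells from spleen. NOX2 knockout cells (GP91 Phox knockout, without the catalytic subunit of the oxidase with which phagocytes make superoxide) were treated with angiotensin II (Ang II, 4 arrays) or vehicle (3 arrays). Cells of C57BL6/J wild-type mice received Ang II together with hydralazine plus hydrochlorothiazide (Hyd/HCTZ, 6 arrays), Ang II together with 2-hydroxybenzylamine (2-HOBA, 4 arrays), Ang II alone (4 arrays) or vehicle (7 arrays). Hydralazine is a vasodilator, hydrochlorothiazide a diuretic, and 2-HOBA a scavenger of reactive lipid aldehydes. The design text asked how oxidative stress bears on expression in dendritic cells. The labels did not settle whether animals or isolated cells were treated, and gave neither doses nor the way the dendritic cells were purified.

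B cells are main lymphocytes of the spleen, where they lie in follicles and the marginal zone. Ebf1 and Pax5 encode the transcription factors that set and hold B lineage identity. Cd79b encodes a signalling chain of the B cell receptor, and Vpreb3 a small immunoglobulin-like protein that binds immunoglobulin chains inside B lineage cells. Ms4a1 encodes the surface protein CD20, Fcrla an Fc receptor-like protein that is kept inside B cells, and Cxcr5 the chemokine receptor that brings B cells into follicles. Cr2 encodes the complement receptors CD21 and CD35, and Fcer2a the low-affinity IgE receptor CD23. Follicular dendritic cells, which are stromal cells and no relatives of dendritic cells, also carry Cr2 and can carry Fcer2a.

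Sequences upstream of the transcription start were given by RefSeq (GRCm38.p6) for 6 of the 9 genes, Cr2, Fcer2a, Ebf1, Pax5, Vpreb3 and Fcrla, with 9 windows in all since Fcer2a and Ebf1 have several starts. The 250 bases before the start were searched on both strands for 4 motifs of factors active in B cells: the octamer ATGCAAAT bound by POU factors, the EBF palindrome (TCCC and GGGA with any 2 bases between them), the E box CAGGTG and the PU.1 core GAGGAA. None of these motifs overlapped another in the windows of the 6 genes. The octamer stood in 1.60% of all 32851 windows of this length, the EBF palindrome in 0.779%, the E box in 17.2% and the PU.1 core in 23.3%. The windows of Vpreb3, which held the octamer, and of Cr2 and Fcrla, the genes with the largest and the smallest difference between Hyd/HCTZ and the other treatments, are shown in the direction of transcription with motif matches in capitals. The Vpreb3 window is chr10:75948050-75948299 on the plus strand, the Cr2 window chr1:195176720-195176969 and the Fcrla window chr1:170927584-170927833, both on the minus strand.
Vpreb3: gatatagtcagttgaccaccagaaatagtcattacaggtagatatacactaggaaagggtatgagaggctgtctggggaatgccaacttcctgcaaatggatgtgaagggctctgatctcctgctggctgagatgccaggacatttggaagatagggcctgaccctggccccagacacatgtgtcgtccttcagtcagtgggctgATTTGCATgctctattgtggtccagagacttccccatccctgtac
Cr2: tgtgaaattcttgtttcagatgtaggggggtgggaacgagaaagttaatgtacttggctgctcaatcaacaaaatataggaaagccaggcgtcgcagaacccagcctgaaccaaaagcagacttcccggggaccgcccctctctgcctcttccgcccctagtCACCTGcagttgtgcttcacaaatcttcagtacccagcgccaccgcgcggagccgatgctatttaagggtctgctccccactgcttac
Fcrla: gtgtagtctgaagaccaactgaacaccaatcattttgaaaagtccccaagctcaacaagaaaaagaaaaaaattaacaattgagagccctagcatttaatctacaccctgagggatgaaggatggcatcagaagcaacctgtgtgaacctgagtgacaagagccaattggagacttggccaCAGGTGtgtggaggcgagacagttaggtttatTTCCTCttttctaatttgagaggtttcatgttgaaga
In Vpreb3 the octamer read ATTTGCAT, its reverse complement, beginning 45 bases before the start. Cr2 held an E box (as CACCTG) beginning 88 bases before the start. Fcrla held an E box beginning 69 bases and a PU.1 core (as TTCCTC) beginning 37 bases before the start. Of the other windows, 1 of Fcer2a held E boxes at 244 and 99 bases and 1 of Ebf1 held a PU.1 core at 130 bases. Thus 1 of 9 windows held the octamer, 3 the E box, 2 the PU.1 core and 0 the EBF palindrome, and a match describes letters and not a bound site.

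A principal component analysis used 998 probe sets that carry no gene symbol and were taken as controls. Fixed cuts along its first component (30.2% of the variance) divided the 28 arrays into 3 sets. Set 1 reached up to -7.48, set 2 ran from -2.47 to 7.31, and set 3 began at 19.4. Inside set 1, wild-type vehicle replicate 2 stood at -26.0 and the next array at -14.4. That gap was wider than the gap between sets 1 and 2. All 7 knockout arrays fell in set 1, together with 2 of the 4 wild-type Ang II arrays (replicates 1 and 2) and 3 of the 7 vehicle arrays (replicates 1 to 3). The 4 2-HOBA arrays and the remaining Ang II and vehicle arrays formed set 2. Set 3 was made up of the 6 Hyd/HCTZ arrays and no others, so set and Hyd/HCTZ treatment cannot be told apart. Cybb, the gene disrupted in the knockout, lay between 6.41 and 7.18 on the 7 knockout arrays, against 8.35 to 9.75 on 20 of 21 wild-type arrays. Cybb stood at 6.34 on the array labelled wild-type vehicle replicate 2, which goes against its label. That array also had the smallest interquartile range over all probe sets (1.92, against 2.43 to 3.44 on the other 27) and the lowest mean correlation with the other arrays (0.852, against 0.927 to 0.956). Counts, medians and orders among the 9 genes that change without it are given with and without it. Defining genes of dendritic cells were present in every group: Itgax, which encodes CD11c, averaged 9.59 in the Hyd/HCTZ group and 8.07 to 8.34 in the other 5 groups, and Flt3, the receptor of the dendritic cell growth factor, 9.31 and 7.84 to 8.10.

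In cells given Hyd/HCTZ with Ang II, 7 of the 9 B cell genes fell against Ang II alone, where 11.9% of all 10452 tested genes were called lower: Cr2, Fcer2a, Ebf1, Pax5, Ms4a1, Cd79b and Vpreb3. The same 7 fell against vehicle (13.2% of all genes called lower), and all 9 fell against 2-HOBA with Ang II (9.72%). No B cell gene was called in any other comparison. The 9 genes were chosen with earlier results of these data known, so the shares of all genes, here and below, are given as description and not as a test. Of the 6 group means, that of the 2-HOBA group was the highest for 9 of 9 genes. The 2-HOBA arrays all lay in array set 2, however, and against the Ang II arrays of that set 6 genes were higher and 3 lower. The mean of the Hyd/HCTZ group was the lowest for 8 of 9 genes, the exception being Fcrla, lowest with Ang II alone.

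**Figure D1:**
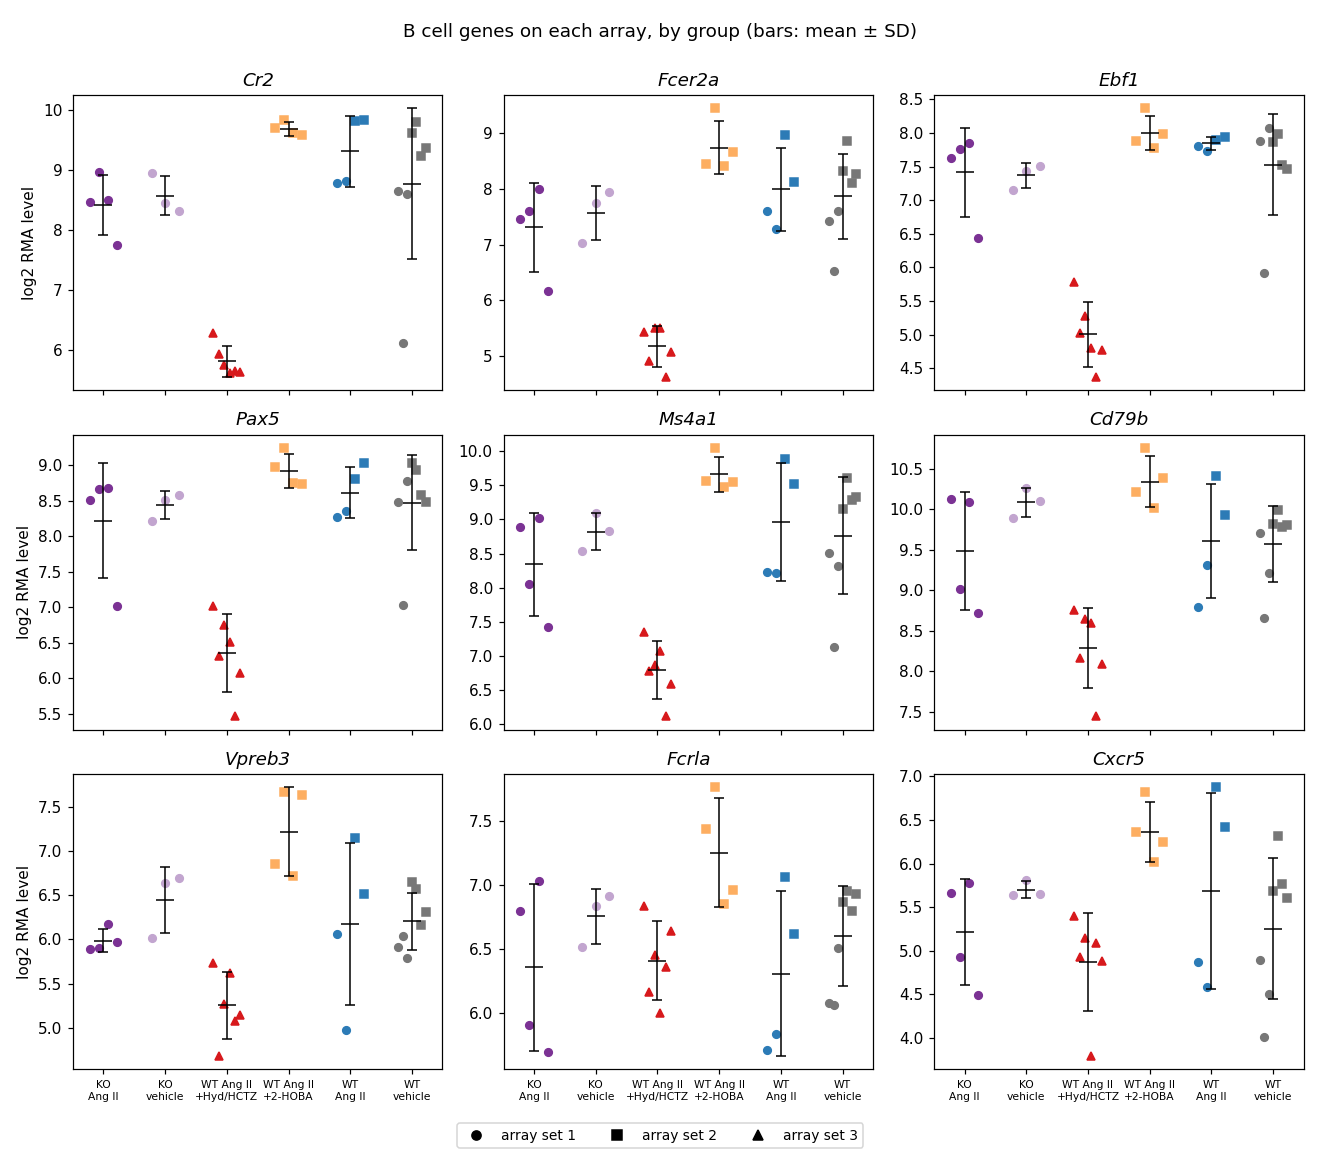
Log2 level (vertical axis) of the 9 B cell genes on each of 28 arrays, by group, with NOX2 knockout (KO) left and wild type (WT) right. Each point is an array, its shape gives the array set, and bars are the mean ± SD. For Ebf1 the 6 Hyd/HCTZ arrays sit between 4.37 and 5.78, below every other array, while for Fcrla they sit between 6.00 and 6.83, among the other groups.

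Both transcription factor genes were lower on every Hyd/HCTZ array than on any other wild-type array. Ebf1 ranged over 4.37 to 5.78 with a median of 4.91 on the 6 Hyd/HCTZ arrays, against 7.88, 8.37, 7.77 and 7.98 with 2-HOBA, 7.81, 7.73, 7.90 and 7.94 with Ang II alone, and 5.91 to 8.07 (median 7.87) with vehicle. On knockout arrays Ebf1 had 7.62, 7.76, 7.85 and 6.43 with Ang II and 7.15, 7.44 and 7.51 with vehicle. Every Hyd/HCTZ array thus lay below all 22 other arrays, the closest being wild-type vehicle replicate 2. The Ebf1 difference between Hyd/HCTZ and Ang II alone was -2.84 ± 0.31 (SE; limma adjusted p = 3.89e-08).

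Pax5 ranged over 5.46 to 7.02 with a median of 6.42 on the Hyd/HCTZ arrays, against 8.97, 9.24, 8.75 and 8.73 with 2-HOBA, 8.27, 8.35, 8.81 and 9.03 with Ang II alone, and 7.04 to 9.03 (median 8.58) with vehicle. Knockout cells had 8.52, 8.67, 8.69 and 7.01 with Ang II and 8.21, 8.51 and 8.58 with vehicle. The Hyd/HCTZ arrays lay below every other wild-type array, with wild-type vehicle replicate 2 the nearest. Knockout Ang II replicate 4 lay just below the highest Hyd/HCTZ array. Pax5 fell by 2.26 ± 0.33 (SE) with Hyd/HCTZ against Ang II alone (limma adjusted p = 2.17e-06).

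Cr2, the complement receptor gene, had the largest differences of the 9. On the Hyd/HCTZ arrays it lay between 5.62 and 6.28 with a median of 5.69, against 9.71, 9.84, 9.62 and 9.58 with 2-HOBA, 8.79, 8.82, 9.82 and 9.83 with Ang II alone, and 6.11 to 9.81 (median 9.24) with vehicle. The vehicle value of 6.11 was that of wild-type vehicle replicate 2, and the other 6 vehicle arrays had 8.61 or more, so the Hyd/HCTZ and vehicle groups overlap through that array alone. Knockout cells had Cr2 levels of 8.46, 8.97, 8.50 and 7.75 with Ang II and 8.95, 8.45 and 8.32 with vehicle. The Cr2 difference between Hyd/HCTZ and Ang II alone was -3.51 ± 0.42 (SE; limma adjusted p = 1.47e-07), which is 11.4-fold lower.

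Fcer2a, the other receptor gene that follicular dendritic cells can carry, was also lower with Hyd/HCTZ. It lay between 4.63 and 5.51 with a median of 5.25 with Hyd/HCTZ, against 8.46, 9.45, 8.42 and 8.66 with 2-HOBA, 7.61, 7.28, 8.97 and 8.12 with Ang II alone, and 6.53 to 8.87 (median 8.11) with vehicle. In knockout cells it had 7.47, 7.61, 8.0 and 6.16 with Ang II and 7.02, 7.76 and 7.95 with vehicle. No Hyd/HCTZ array reached the lowest array of any other group. The Fcer2a difference from Ang II alone was -2.82 ± 0.37 (SE; limma adjusted p = 4.94e-07).

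Of the surface and receptor genes, Ms4a1 (CD20) lay between 6.12 and 7.36 with a median of 6.82 on the Hyd/HCTZ arrays, against 9.56, 10.04, 9.48 and 9.55 with 2-HOBA, 8.23, 8.21, 9.89 and 9.51 with Ang II alone, and 7.13 to 9.60 (median 9.15) with vehicle. Its knockout levels were 8.89, 8.05, 9.02 and 7.42 with Ang II and 8.54, 9.09 and 8.83 with vehicle. Again the overlap of Hyd/HCTZ with vehicle came from replicate 2 of the vehicle group, since the next vehicle array had 8.32. Ms4a1 fell by 2.16 ± 0.38 (SE) against Ang II alone (limma adjusted p = 3.42e-05).

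Cd79b, the receptor's signalling chain, lay between 7.44 and 8.76 with a median of 8.38 with Hyd/HCTZ, against 10.21, 10.76, 10.02 and 10.39 with 2-HOBA, 8.79, 9.31, 10.41 and 9.93 with Ang II alone, and 8.66 to 9.99 (median 9.78) with vehicle. In knockout cells it had 10.13, 9.01, 10.08 and 8.72 with Ang II and 9.89, 10.26 and 10.11 with vehicle. The Hyd/HCTZ arrays lay below the Ang II and 2-HOBA arrays, by as little as 0.03 for the nearest Ang II array. The difference from Ang II alone was -1.32 ± 0.31 (SE; limma adjusted p = 0.000748). Its partner chain Cd79a, not one of the 9, averaged 6.82 ± 0.61 (SD, n = 6) with Hyd/HCTZ, against 8.68 with 2-HOBA, 8.0 ± 0.69 (SD, n = 4) with Ang II alone and 8.02 with vehicle.

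Vpreb3 lay between 4.68 and 5.73 with a median of 5.21 with Hyd/HCTZ, against 6.86, 7.66, 6.71 and 7.63 with 2-HOBA, 6.06, 4.98, 7.15 and 6.51 with Ang II alone, and 5.79 to 6.65 (median 6.17) with vehicle. Knockout cells had Vpreb3 levels of 5.89, 5.91, 6.18 and 5.97 with Ang II and 6.02, 6.64 and 6.69 with vehicle. All 7 vehicle arrays lay above the Hyd/HCTZ arrays, while 1 of 4 Ang II arrays lay among them. Vpreb3 fell by 0.92 ± 0.28 (SE) against Ang II alone (limma adjusted p = 0.00792), and without wild-type Ang II replicate 3 the difference was -0.60 (limma adjusted p = 0.0736).

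Fcrla and Cxcr5 departed from the other 7. Fcrla lay between 6.00 and 6.83 with a median of 6.40 with Hyd/HCTZ, against 7.44, 7.76, 6.85 and 6.96 with 2-HOBA, 5.71, 5.84, 7.06 and 6.61 with Ang II alone, and 6.06 to 6.95 (median 6.80) with vehicle. Its knockout levels were 6.79, 5.90, 7.03 and 5.69 with Ang II and 6.51, 6.83 and 6.92 with vehicle. Only the 2-HOBA arrays lay wholly above the Hyd/HCTZ arrays, by as little as 0.02. The Fcrla difference of Hyd/HCTZ from Ang II alone was 0.10 ± 0.27 (SE; 95% confidence interval -0.46 to 0.66; limma adjusted p = 0.769), and from 2-HOBA -0.85 ± 0.27 (SE; limma adjusted p = 0.0125), which became -0.68 (limma adjusted p = 0.0700) without 2-HOBA replicate 2.

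Cxcr5 lay between 3.79 and 5.40 with a median of 5.01 with Hyd/HCTZ, against 6.36, 6.83, 6.01 and 6.25 with 2-HOBA, 4.87, 4.59, 6.87 and 6.42 with Ang II alone, and 4.01 to 6.32 (median 5.61) with vehicle. In knockout cells it had 5.66, 4.92, 5.77 and 4.50 with Ang II and 5.64, 5.81 and 5.65 with vehicle. At least 2 arrays of each group but the 2-HOBA and knockout vehicle groups lay under the signal threshold of 5, so small differences of Cxcr5 are not measured well. The Cxcr5 difference of Hyd/HCTZ from Ang II alone was -0.81 ± 0.40 (SE; limma adjusted p = 0.0899) and from 2-HOBA -1.49 ± 0.40 (SE; limma adjusted p = 0.0034). Cxcr5 was also called against Ang II alone without Ang II replicate 1 (-1.09, limma adjusted p = 0.0428) and without Ang II replicate 2 (-1.18, limma adjusted p = 0.0228).

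Read against all tested genes, the falls with Hyd/HCTZ ran the other way from most genes. Against Ang II alone 40.8% of all genes were called higher and 11.9% lower. The median difference of all genes was 0.32 against Ang II alone, 0.31 against vehicle and 0.25 against 2-HOBA. Because of this shift each B cell gene was also tested against the median difference in place of 0. On that scale 8 of 9 fell against Ang II alone (25% of all genes), 7 of 9 against vehicle (27%) and 9 of 9 against 2-HOBA (21.1%). The 6 genes whose Hyd/HCTZ arrays lay wholly below the Ang II arrays, all of the 7 called except Vpreb3, compare with 10% of all genes, the 4 wholly below vehicle (Fcer2a, Ebf1, Pax5 and Vpreb3) with 3.62%, and the 9 wholly below 2-HOBA with 11.1%. Without wild-type vehicle replicate 2, 7 of the 9 lay wholly below vehicle, as did 6.97% of all genes, and 7 of the 9 were called lower by limma, as were 15% of all genes. The comparisons share the Hyd/HCTZ arrays and are not independent. In bulk RNA, fewer B cells and less of these RNAs per cell cannot be told apart.

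**Figure D2:**
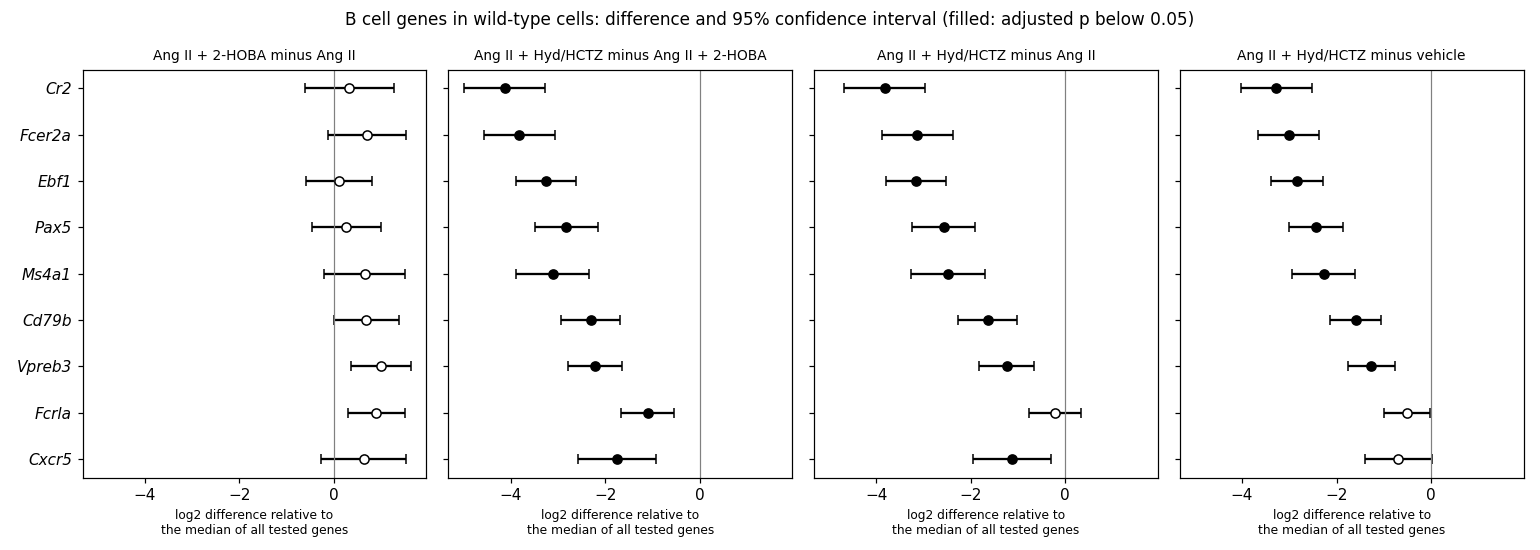
Log2 difference of each B cell gene in wild-type cells relative to the median of all tested genes (horizontal axis), with 95% confidence intervals, in 4 comparisons. Filled points passed an adjusted p of 0.05 (limma). Cr2 stands farthest left in the 3 Hyd/HCTZ comparisons, at -4.13, -3.82 and -3.27, and no point is filled for 2-HOBA against Ang II alone.

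The size of the fall differed several-fold among the 9 genes. Relative to the median of all genes, Cr2 was 17.5-fold lower with Hyd/HCTZ than with 2-HOBA, 14.2-fold lower than with Ang II alone and 9.67-fold lower than with vehicle. Ebf1 was 9.51-, 8.93- and 7.15-fold lower in the same order and Fcer2a 14.1-, 8.79- and 8.06-fold lower. Pax5 was 7.06-, 5.97- and 5.39-fold lower, Ms4a1 8.65-, 5.58- and 4.84-fold lower, and Cd79b 4.96-, 3.12- and 3.03-fold lower. Vpreb3 stood at 4.64-, 2.36- and 2.40-fold lower. Some Hyd/HCTZ arrays lay under the signal threshold of 5 for Ebf1 (lowest 4.37), Fcer2a (4.63) and Vpreb3 (4.68), so the sizes of these falls are measured less well. Fcrla was 2.14-fold lower than with 2-HOBA (limma adjusted p = 0.00194), with differences of -0.22 (limma adjusted p = 0.531) from Ang II alone and -0.50 (limma adjusted p = 0.0727) from vehicle. Cxcr5, whose Hyd/HCTZ mean of 4.87 lay under the threshold, was at least 3.06-fold lower than with 2-HOBA and at least 2.01-fold lower than with Ang II alone (limma adjusted p = 0.0217), and differed by -0.69 from vehicle (limma adjusted p = 0.0949). The confidence intervals of Cr2 (-4.69 to -2.96) and of Cd79b (-2.27 to -1.01) against Ang II alone did not meet, but no test of a difference between genes was run, and probe sets can differ in how far they compress a change.

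The B cell genes also moved together from array to array. Over the 36 pairs of genes, the correlation of levels over all 28 arrays ran from 0.38 to 0.98 with a median of 0.83. Taken as deviations from the group means, which leaves out the differences between groups, the pairs ran from 0.25 (Ebf1 with Vpreb3) to 0.93 (Ebf1 with Pax5) with a median of 0.72, or 0.66 without wild-type vehicle replicate 2. Within the 6 Hyd/HCTZ arrays alone, the median pair had 0.56, from -0.26 (Fcer2a with Cxcr5) to 0.98 (Pax5 with Cd79b). Ms4a1 followed the mean of the 9 most closely (0.97) and Vpreb3 least (0.63). Without that vehicle array Ms4a1 had 0.95 and Vpreb3 0.73, and Ebf1 followed least (0.66). The mean of the 9 includes the gene compared with it, which favours a positive correlation. These correlations are descriptions over arrays that share processing and depth of signal. As deviations from the group means, the interquartile range of an array correlated with the mean of the 9 at 0.71, or 0.50 without that vehicle array. Between groups the relation differed, since the 6 Hyd/HCTZ arrays had the widest interquartile ranges (3.09 to 3.44) with means of the 9 of 5.58 to 6.51. The wild-type vehicle and Ang II groups span array sets 1 and 2, and deviations from the group means keep the difference between those sets. The parts of array spread and array set in the correlations were not tested.

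The 8 genes whose deviations were most like those of the mean of the 9 over the 28 arrays were Scd1 (0.95), Cd55 (0.94), Tnfrsf13c (0.93), Fcrl1 (0.92), H2-Ob (0.92), Bank1 (0.91), S1pr1 (0.91) and Srpk3 (0.91). Tnfrsf13c encodes the receptor of the B cell survival factor BAFF, Fcrl1 an Fc receptor-like protein of B cells and Bank1 an adaptor of B cell receptor signalling. Cd55 encodes an inhibitor of complement, Scd1 a fatty acid desaturase and S1pr1 the receptor that guides lymphocyte egress. Without wild-type vehicle replicate 2 the 8 correlations ran from 0.86 to 0.93. Differences between array sets inside the wild-type vehicle and Ang II groups remain in these correlations. H2-Ob, a class II peptide-loading regulator made in B cells and in some dendritic cells, followed the 9 within groups but not over the levels of all 28 arrays, where its correlation was 0.16. Its Hyd/HCTZ mean was 9.16, equal to the 9.16 with 2-HOBA and against 8.45 with Ang II alone.

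The mean of the 9 genes on each array split by array set within the wild-type groups that span both sets. With Ang II alone it was 7.35 and 7.23 on the set 1 arrays and 8.54 and 8.21 on the set 2 arrays. With vehicle it was 7.50, 6.39 and 7.49 in set 1, and 8.11, 8.34, 7.92 and 7.95 in set 2. The lowest set 2 array thus lay above the highest set 1 array of both groups. Of the 9 genes, 9 were wholly higher in set 2 in the Ang II group, by 0.15 (Ebf1) to 1.92 (Cxcr5), and 7 in the vehicle group, with median differences of 1.10 for Ang II and 0.67 for vehicle. Without wild-type vehicle replicate 2 the number wholly higher in the vehicle group was again 7, the median difference was 0.59, and Ebf1 turned to -0.26. What distinguishes the sets was not given in the labels.

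**Figure D3:**
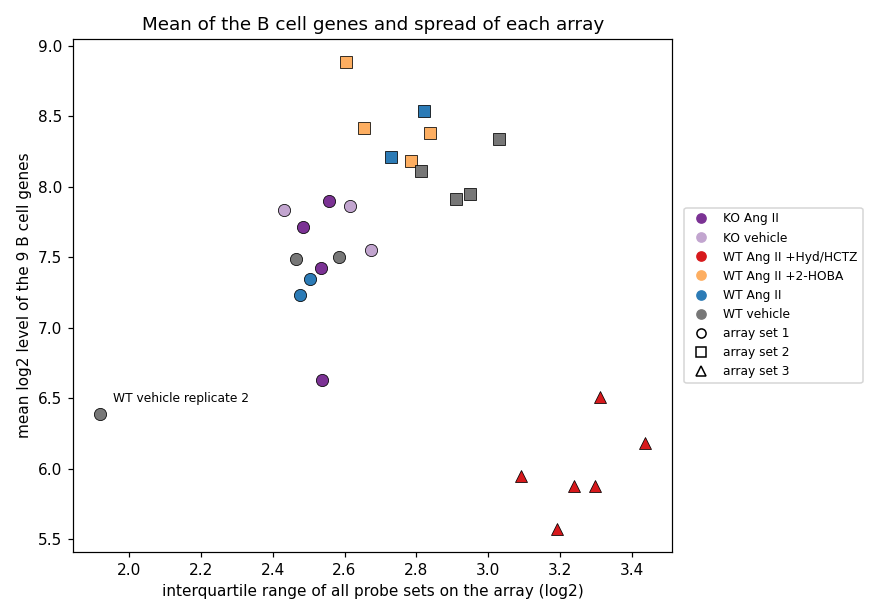
Mean log2 level of the 9 B cell genes (vertical axis) against the interquartile range of all probe sets (horizontal axis, log2) on each of 28 arrays, coloured by group, with a shape for each array set. The 6 Hyd/HCTZ arrays lie at 5.58 to 6.51, the 10 arrays of set 2 at 7.92 to 8.88, and the 12 arrays of set 1 at 6.39 to 7.90.

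With 2-HOBA and Ang II, the difference from Ang II alone was above 0 for 9 of 9 B cell genes, but no gene passed the test. The group mean of the 9 was 8.47 ± 0.30 (SD, n = 4) with 2-HOBA and 7.83 ± 0.64 (SD, n = 4) with Ang II alone. The median difference of the 9 was 0.70, against 0.05 for all genes, of which 0% were called higher. Vpreb3 had the largest difference, 1.04 (95% confidence interval 0.41 to 1.68; limma adjusted p = 0.977), followed by Fcrla at 0.95 (0.34 to 1.56; limma adjusted p = 0.977) and Cd79b at 0.73 (0.04 to 1.42; limma adjusted p = 0.977). By limma 3 of the 9 and 379 of all 10452 genes had an unadjusted p under 0.05, and the groups overlapped for every one of the 9 (of all genes 1.8% lay wholly above and 1.06% wholly below). The 2-HOBA arrays all belong to set 2, and compared with the 2 Ang II arrays of that set the median difference was 0.08, with 6 genes above 0 and 3 below. Within the set Fcrla differed by 0.42 and Vpreb3 by 0.39, while Cr2 differed by -0.14, Ms4a1 by -0.04 and Cxcr5 by -0.28. With array set as a blocking term the median was below 0.01 in size, and Cr2 differed by -0.36.

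Ang II alone was not distinguished from vehicle by any B cell gene. In wild-type cells 7 of 9 differences were above 0, with a median of 0.14, and 0% of all genes were called. Cr2 had the largest, 0.54 (95% confidence interval -0.29 to 1.38; limma adjusted p = 1). Without wild-type vehicle replicate 2, 3 were above 0 and 6 below, with a median of -0.07. By limma 0 of the 9 and 266 of all genes had an unadjusted p under 0.05.

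In knockout cells 8 of 9 differences between Ang II and vehicle were below 0, with a median of -0.40, and again none passed the test (0% of all genes called). The mean of the 9 was 7.42 ± 0.56 (SD, n = 4) with Ang II and 7.75 ± 0.18 (SD, n = 3) with vehicle. Cd79b had the largest difference, -0.60 (95% confidence interval -1.34 to 0.15; limma adjusted p = 1). Knockout Ang II replicate 4 was the lowest of its group for 8 of the 9 genes, with a mean of 6.63 against 7.42 to 7.90 on the other 3. That array also had the highest mean of 11 neutrophil genes, 8.73 against 6.36 to 7.41, and of 9 erythroid genes, 7.46 against 4.78 to 5.46, and their part in its low B cell genes was not tested. Without it 5 differences were below 0 and 4 above, with a median of -0.17. By limma 0 of the 9 and 296 of all genes had an unadjusted p under 0.05.

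Knockout and wild-type cells did not separate for these genes either. Under vehicle 5 differences were above 0 and 4 below, from -0.30 for Fcer2a to 0.52 for Cd79b, with a median of 0.06. Without wild-type vehicle replicate 2 the median turned to -0.21, with 4 above 0 and 5 below, from -0.64 for Cr2 to 0.37 for Cd79b. Under Ang II 8 were below 0, with a median of -0.43, the largest being Cr2 at -0.89 (95% confidence interval -1.84 to 0.05; limma adjusted p = 0.748). Without knockout Ang II replicate 4, 6 were below 0 and 3 above, with a median of -0.18. All knockout arrays belong to set 1, and within that set the medians were 0.54 under vehicle, or 0.40 without wild-type vehicle replicate 2, and 0.13 under Ang II, so the direction under Ang II turned. Under Ang II 0.00957% of all genes were called higher and 0.0383% lower, and under vehicle 0.00957% lower. No B cell gene had an unadjusted p under 0.05 by limma, against 657 of all genes under vehicle and 714 under Ang II. The interaction of genotype with Ang II was below 0 for 9 of 9 genes with a median of -0.43, from -0.92 for Cxcr5 to -0.11 for Fcrla (limma adjusted p = 1 for each), while 257 of all genes and 0 of the 9 had an unadjusted p under 0.05. It was below 0 for 8 genes without wild-type vehicle replicate 2 and for 5 without knockout Ang II replicate 4.

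A wider list of B cell genes behaved in part like the 9. Of its 35 tested genes, 21 fell with Hyd/HCTZ against Ang II alone relative to the median of all genes and 0 rose, with a median of -0.98, beside 25% of all genes lower and 23.7% higher on that scale. On the deposited scale 19 fell and 3 rose (H2-Ob, Plcg2 and Cd40), with a median of -0.66, beside 11.9% of all genes lower and 40.8% higher. Of the 4 genes named from this list, Cd22, an inhibitory coreceptor, had 7.94 ± 0.49 with Hyd/HCTZ and 9.47 ± 0.24 with Ang II alone (SD, n = 6 and 4), and Bank1 7.82 ± 0.36 and 9.46 ± 0.76. The tetraspanin gene Cd37 had 8.31 ± 0.25 and 9.47 ± 0.28, and these 3 fell relative to all genes by 1.85, 1.96 and 1.48 (limma adjusted p = 1.86e-05, 7.43e-05 and 4.21e-07). Cd180, a receptor of B cells and some dendritic cells, had 9.67 ± 0.14 and 9.51 ± 0.53 (relative difference -0.15; limma adjusted p = 0.678). The mean of the 35 genes correlated with that of the 9 at 0.96 over the deviations of 28 arrays, and with 2-HOBA 33 of the 35 differences from Ang II alone were above 0 with 0 called (median 0.32).

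Of the other B lineage lists, all but the precursor list held calls in both directions, beside 23.7% of all genes higher and 25% lower on the same scale. With Hyd/HCTZ against Ang II alone, relative to all genes, 2 of 10 immunoglobulin and plasma cell genes rose and 3 fell: Slamf7, also found on other leukocytes, rose by 1.49, and the joining chain gene Jchain and the heavy chain gene Ighm fell by 1.25 and 1.02. Of 7 precursor genes 5 fell, among them Lef1, a factor that T cells share (-2.07), and Erg (-1.37). Of 5 germinal centre genes 2 rose and 1 fell, with Bcl6 at 1.64, Gcsam, also on the type 1 dendritic cell list, at 1.84 and S1pr2 at -0.51. On the deposited scale 4 of these 5 genes rose and 0 fell, and S1pr2 differed by -0.19 (limma adjusted p = 0.345). Of 11 marginal zone and B1 genes 1 rose and 4 fell, with S1pr1 at -1.56 and the Notch target Dtx1 at -1.31. On the deposited scale 3 plasma cell genes rose and 2 fell, 4 precursor genes fell and 0 rose, and 2 marginal zone and B1 genes rose and 2 fell.

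Lists of other cell types moved as well. Relative to all genes, of which 25% were called lower, 14 of 16 T cell genes fell (median -1.17), Lat and Cd3e by 1.79 and 1.5. On the deposited scale 11 of the 16 fell. Of 13 genes of follicular dendritic cells and white pulp stroma 10 fell and 2 rose (median -1.10), with Coch at -2.97, Sparc at -2.35 and Clu at -1.10, and Ccl19 at -0.60 (limma adjusted p = 0.074). Of 13 NK cell genes 6 fell and 1 rose, of 11 neutrophil genes 8 fell, and of 9 erythroid genes 8 fell. On the deposited scale, with 11.9% of all genes lower, 10 stroma genes, 3 NK cell genes, 5 neutrophil genes and 8 erythroid genes fell. On that scale 2 stroma genes, 1 NK cell gene, 0 neutrophil genes and 1 erythroid gene rose. These counts are against Ang II alone. Against 2-HOBA with Ang II, 12 T cell, 8 stroma, 3 NK cell, 0 neutrophil and 1 erythroid genes fell on the deposited scale. In that comparison 9.72% of all genes were called lower. There 2 stroma genes and 1 erythroid gene rose, beside 3758 of all 10452 genes. The mean level of the T cell list was 4.86 to 5.39 on the Hyd/HCTZ arrays and 5.97 to 6.13 on the Ang II arrays, that of the stroma list 4.73 to 5.11 and 5.43 to 6.07, and that of the erythroid list 4.27 to 4.75 and 5.12 to 6.30. On the 2-HOBA arrays the erythroid list had 4.45 to 5.04. Genes of dendritic cells went up against Ang II alone relative to all genes, as did 23.7% of all tested genes. Of the shared dendritic cell genes 8 of 9 rose (median 1.07), with a list mean of 8.87 to 9.03 with Hyd/HCTZ, against 7.35 to 7.90 with Ang II alone. So did 13 of 13 type 1 genes (1.23), 6 of 9 type 2 genes (1.43) and 4 of 8 plasmacytoid genes, while 1 plasmacytoid gene fell. Of 13 red pulp macrophage genes 8 rose and 0 fell, and of 11 housekeeping genes 4 rose and 1 fell (median 0.27). On the deposited scale, with 40.8% of all genes higher, 9 shared, 13 type 1, 8 type 2 and 6 plasmacytoid dendritic cell genes, 12 red pulp macrophage genes and 7 housekeeping genes rose and 0 fell. Against vehicle 6 of 13 red pulp macrophage genes rose and 0 fell on that scale, beside 4537 of all 10452 genes higher. How far the makeup of the preparation, the array set or the treatment bears on the B cell genes was not tested.

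**Figure D4:**
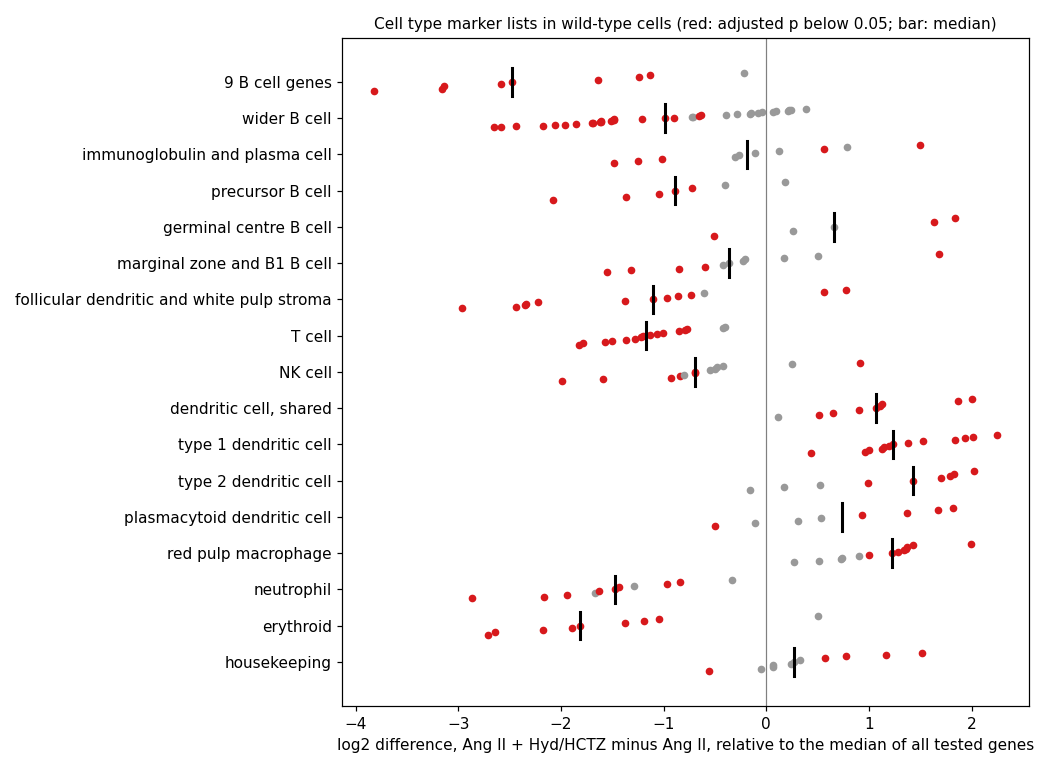
Log2 difference between Hyd/HCTZ with Ang II and Ang II alone, relative to the median of all tested genes (horizontal axis), for the 9 B cell genes and 16 marker lists in wild-type cells. Each point is a gene, red where the limma adjusted p was below 0.05, and bars are medians: -2.48 for the 9 B cell genes, -0.98 for the wider B cell list and 1.07 for shared dendritic cell genes.

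Within groups the mean of the 9 also correlated with several other lists over the 28 arrays. Differences between array sets inside the wild-type vehicle and Ang II groups remain in these values, and their part was not tested. The correlation of deviations was 0.77 with the marginal zone and B1 list, 0.73 with the NK cell list, 0.70 with the shared dendritic cell list, 0.63 with the plasma cell list, 0.58 with housekeeping genes and 0.52 with the T cell list. Without wild-type vehicle replicate 2 these became 0.63, 0.61, 0.48, 0.34, 0.32 and 0.32, while that with the wider B cell list was 0.97. With the stroma, erythroid and neutrophil lists it was -0.23, -0.23 and -0.09, or -0.19, -0.28 and -0.20 without that array. The plasmacytoid, type 2 and type 1 dendritic cell lists had 0.67, 0.52 and 0.27, or 0.46, 0.28 and 0.31 without it. The germinal centre, precursor B cell and red pulp macrophage lists had 0.35, 0.20 and 0.19, or 0.17, 0.06 and -0.12 without it.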

How the data were processed

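RNA of 28 dendritic cell samples was hybridised to 1-colour Affymetrix arrays. The deposited values are log2 intensities made by the authors with RMA in Partek 6.6, per the submitters' processing notes, and they were used as deposited. RMA settings are not given in the sources used here. RMA compresses large and dim differences, and precision is limited by how many arrays each group has.

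Of 35556 probe sets, 21789 carried 1 symbol and were used. Where a gene had several, the one with the highest mean was kept. Groups followed each sample's description, since some knockout titles wrote Ang I where the descriptions wrote Ang II. limma 3.58.1 (R 4.3.3) gave the differences (6 group means, 28 arrays, eBayes), with Benjamini-Hochberg adjustment over 10452 genes within each of 9 comparisons, two-sided, called below 0.05. Labels call the samples biological replicates. Where a group mean lay below 5, an "at least" fold puts 5 in its place. The script was tested on simulated data.

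The members and lists were chosen with earlier results of these data known. Named genes were the 9, at most 4 with the highest mean from each list, Cd79a, up to 4 called genes of the wider list that opposed the 9, the 8 most alike genes and Cybb, with Itgax and Flt3 as checks of the labelled cell type. Alternatives were other filters, scalings and fits, averaging a gene's probe sets, replicate number or array set as a block, single array sets and leaving out each array. Set 1 without wild-type vehicle replicate 2 was added after seeing the data. Figures were drawn with matplotlib 3.10.9 in Python 3.11.15.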

Additional observations from a re-analysis of the deposited data

Results flagged for a closer look

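Of 45 tests of a single array standing apart within a group (9 genes in the 5 groups of 4 to 7 arrays), 7 passed Dixon's 95% criterion. Chance passes about 1 in 20 of independent tests, but the 9 genes share arrays and move together, so these tests are not independent. Wild-type vehicle replicate 2 stood low for Cr2 (6.11, next array 8.61), Ebf1 (5.91, next 7.46) and Pax5 (7.04, next 8.48). It is the array whose Cybb level goes against its label. Knockout Ang II replicate 4 stood low for Ebf1 (6.43, next 7.62) and Pax5 (7.01, next 8.52), beside the highest neutrophil and erythroid list means of its group. Ms4a1 stood high on 2-HOBA replicate 2 (10.04, next 9.56), which was the highest of its group for 9 of the 9 genes. Cxcr5 stood low on Hyd/HCTZ replicate 4 (3.79, next 4.89), below the signal threshold. The parts of these arrays in the group values were not tested beyond the values given without them.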

How the results depend on the processing

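The number of B cell genes called kept within 1.5 times under every alternative that could be fitted. Leaving out single arrays gave 6 to 8 genes called for Hyd/HCTZ against Ang II alone (6 without wild-type Ang II replicate 3), 8 to 9 against 2-HOBA (8 without 2-HOBA replicate 2), 7 against vehicle each time, and 0 elsewhere. The array set could not be fitted as a block for Hyd/HCTZ, and above a threshold of 7 Cxcr5 was not tested. Over all genes, the number called for Hyd/HCTZ against Ang II alone, vehicle and 2-HOBA was 5503, 5919 and 4774, against 2552, 2679 and 2262 above 7, and 8761 and 10334 for the first and second with no filter; knockout minus wild type ranged over 1 to 68 genes under vehicle and 1 to 13 under Ang II when single arrays were left out. The deviations of same-numbered arrays correlated at -0.35 to 0.37. With 3 to 6 such pairs in a comparison, this cannot settle whether the numbers pair the arrays. With the replicate block Cxcr5 was called for Hyd/HCTZ against Ang II alone (-1.05, limma adjusted p = 0.0444) and 8 genes in all. Fcrla was called against vehicle under quantile normalization (-0.55, limma adjusted p = 0.0375). All sign changes concerned differences that were not called, and the cause was not tested.

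Under quantile normalization, the sign turned in Hyd/HCTZ minus Ang II alone Fcrla (-0.23), in knockout minus wild type under vehicle Pax5 (0.064). Relative to the median of all genes, the sign turned in Hyd/HCTZ minus Ang II alone Fcrla (-0.22). With the replicate block, the sign turned in Hyd/HCTZ minus Ang II alone Fcrla (-0.0042), in knockout minus wild type under vehicle Cr2 (0.13). With array set as a blocking term, the sign turned in 2-HOBA minus Ang II alone Cr2 (-0.36), Ebf1 (-0.00463), Pax5 (-0.0103), Ms4a1 (-0.000383) and Cxcr5 (-0.11), in Ang II minus vehicle in wild type Vpreb3 (0.0269), in knockout minus wild type under vehicle Cr2 (0.64), Fcer2a (0.37), Ebf1 (0.023) and Pax5 (0.33), in knockout minus wild type under Ang II Ms4a1 (0.0844), Cd79b (0.29), Vpreb3 (0.21) and Cxcr5 (0.31). Within set 1, the sign turned in Ang II minus vehicle in wild type Cd79b (-0.14), in knockout minus wild type under vehicle Cr2 (0.79), Fcer2a (0.39), Ebf1 (0.0824) and Pax5 (0.34), in knockout minus wild type under Ang II Ms4a1 (0.13), Cd79b (0.44), Vpreb3 (0.47) and Cxcr5 (0.48), in the interaction Fcrla (0.0432). Within set 2, the sign turned in 2-HOBA minus Ang II alone Cr2 (-0.14), Ms4a1 (-0.0412) and Cxcr5 (-0.28), in Ang II minus vehicle in wild type Vpreb3 (0.40). Within set 1 without wild-type vehicle replicate 2 (added after seeing the data), the sign turned in Ang II minus vehicle in wild type Fcer2a (-0.0707), Ebf1 (-0.20), Pax5 (-0.32), Ms4a1 (-0.20) and Cd79b (-0.41), in knockout minus wild type under vehicle Fcer2a (0.0617), in knockout minus wild type under Ang II Ms4a1 (0.13), Cd79b (0.44), Vpreb3 (0.47) and Cxcr5 (0.48), in the interaction Ebf1 (0.25), Pax5 (0.10) and Fcrla (0.12). With single arrays left out, some uncalled differences also turned. In Ang II minus vehicle in knockout they ran over -0.34 to 0.0684 for Cr2, -0.0957 to 0.38 for Ebf1, -0.54 to 0.12 for Fcer2a and -0.37 to 0.19 for Pax5. In knockout minus wild type under vehicle they ran over -0.28 to 0.0735 for Pax5 and -0.21 to 0.20 for Ms4a1. In knockout minus wild type under Ang II they ran over -0.18 to 0.30 for Fcrla, -0.39 to 0.14 for Cd79b, -0.55 to 0.00832 for Pax5 and -0.59 to 0.14 for Vpreb3. In the interaction they ran over -0.33 to 0.15 for Fcrla, -0.66 to 0.00178 for Fcer2a, -0.41 to 0.0641 for Ebf1 and -0.51 to 0.0473 for Pax5. In Ang II minus vehicle in wild type they ran over -0.21 to 0.36 for Fcer2a, -0.0983 to 0.26 for Pax5, -0.11 to 0.45 for Ms4a1, -0.23 to 0.31 for Cd79b and -0.35 to 0.37 for Vpreb3. In Hyd/HCTZ minus Ang II alone they ran over -0.0971 to 0.35 for Fcrla.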
